A study of Mus musculus with 10 samples.

Results

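Tecta, Tectb, Otog, Otogl and Otoa encode the noncollagenous glycoproteins of the tectorial membrane and the protein that anchors it. Their RNA was followed in whole inner ears of mouse embryos at embryonic day E16.5, in 5 samples homozygous for the nmf219 allele of Tbx1 and 5 wild-type (WT, +/+) samples. All samples carry the strain label C57BL/6. The genes were listed by name, with earlier results of these data known, and all 5 were among the 15472 genes of the deposited table. Tbx1 encodes a T-box transcription factor of the developing ear. The labels name neither the change that the allele makes nor which animals or litters gave the samples, and the spread behind every p-value is that between the libraries as deposited, which may be technical.

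The tectorial membrane is an acellular gel that lies over the organ of Corti, the sensory epithelium of the cochlea, and couples sound to the stereocilia of hair cells. It begins to be secreted before birth, by nonsensory and supporting cells of the cochlear floor. Alpha-tectorin (Tecta) and beta-tectorin (Tectb) form its striated sheet matrix through their zona pellucida domains, otogelin (Otog) and otogelin-like (Otogl) are large mucin-like proteins with von Willebrand factor D domains, and otoancorin (Otoa) fixes the gel to the surface of nonsensory cells. The tectorins and otogelins are also made in the vestibule, where they enter the otoconial membranes, so a whole inner ear measures both organs together. Fewer cells of a type and less RNA per cell cannot be told apart in such bulk samples.

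The mean levels of the 5 genes in nmf219 ears lay within 15% of those in WT ears. In the mean of 5 libraries, Otoa was 1.14-fold, Tectb 1.09-fold and Tecta 1.06-fold the WT level in nmf219, Otog was 0.995-fold and Otogl 0.993-fold. None of the 5 passed the test between genotypes (limma on log2(value + 1), Benjamini-Hochberg adjusted p under 0.05 over all 15472 genes), and 0 of 5 had an unadjusted p under 0.05. Of all genes measured, 0.084% passed, 0.0129% as higher and 0.0711% as lower in nmf219. An unadjusted p under 0.05 was found for 7.11%, so a count of 0 among 5 genes is near the background. The ranges of the genotypes overlapped for all 5 genes, where 1.17% of all genes had ranges that did not. Libraries of the same genotype differed most for Otogl and Otoa, and Otoa had an inverse relation with an embryonic globin gene.

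The values below are the deposited normalized values, headed as CPM. Each value was a whole multiple of a smallest step, and a library held 35293445 to 40942278 steps in nmf219 and 31244799 to 41875972 in WT. These totals measure depth if 1 step is 1 read. All 12 hair cell markers, all 12 supporting cell markers and all 11 cochlear floor markers looked for were in the table, with summed values for the hair cell list of 248 to 315 in nmf219 and 218 to 324 in WT. Libraries differed in skeletal muscle RNA, with a list mean of 4.91 to 6.67 on the log2 scale in nmf219 and 2.80 to 6.05 in WT. The embryonic globin gene Hbb-y had values between 3.66 and 33.0 in nmf219 libraries, against 3.10 and 44.4 in WT libraries. A Y-linked gene was at 1 or more in 0 of 5 nmf219 and 3 of 5 WT libraries, so the sexes of the embryos were not balanced between the genotypes.

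Tecta (ENSMUSG00000037705) lies on chromosome 9 from 42329619 to 42399929 on the minus strand, in the coordinates of the deposited table, and its longest coding transcript in GENCODE M21 has 24 exons. It was at 363, 387, 411, 378 and 365 in nmf219 replicates 1 to 5, against 353, 363, 318, 376 and 379 in WT replicates 1 to 5. The ranges overlapped: nmf219 replicates 2 and 3 lay above every WT library, and WT replicate 3 lay below all others. Tecta averaged 381 ± 19.4 in nmf219 and 358 ± 24.5 in WT (SD, n = 5 each), a log2 fold change of 0.09 (SE 0.05, 95% interval -0.02 to 0.20, limma adjusted p = 0.706, two-sided exact permutation p = 0.151). Without WT replicate 3 the log2 fold change was 0.05 (limma adjusted p = 0.852).

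Tectb (ENSMUSG00000024979, chromosome 19, 55180733 to 55196313, plus strand, 11 exons) encodes the smallest of the proteins. It was at 66.3, 71.0, 78.9, 74.1 and 78.4 in nmf219 replicates 1 to 5, against 62.9, 64.0, 65.0, 81.4 and 64.3 in WT replicates 1 to 5. In WT, 4 libraries lay within 62.9 to 65.0, below every nmf219 library, while WT replicate 4 was the highest of all 10. Tectb averaged 73.7 ± 5.28 in nmf219 and 67.5 ± 7.79 in WT (SD, n = 5 each), a log2 fold change of 0.13 (SE 0.07, 95% interval -0.03 to 0.29, limma adjusted p = 0.703, exact permutation p = 0.159). Without WT replicate 4, which sat apart from its group, the log2 fold change was 0.20 and the limma adjusted p 0.448.

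Otog (ENSMUSG00000009487, chromosome 7, 46240987 to 46311434, plus strand, 56 exons) had the smallest within-genotype SD of the 5 genes on the log2 scale. It was at 199, 207, 230, 213 and 210 in nmf219 replicates 1 to 5, against 215, 225, 196, 218 and 210 in WT replicates 1 to 5. The genotypes overlapped over nearly their whole ranges, with 211 ± 11.4 in nmf219 and 212 ± 10.8 in WT (SD, n = 5 each). The log2 fold change was -0.01 (SE 0.05), and its 95% interval of -0.11 to 0.09 spans folds of 0.929 to 1.07 (limma adjusted p = 0.9745, exact permutation p = 0.905).

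Otogl (ENSMUSG00000091455, chromosome 10, 107762223 to 107912134, minus strand, 58 exons) had the largest. It was at 62.1, 71.7, 67.7, 66.0 and 78.2 in nmf219 replicates 1 to 5, against 68.0, 79.1, 63.0, 87.6 and 50.5 in WT replicates 1 to 5. WT held both the highest and the lowest library, so that its spread was 69.7 ± 14.3 where that of nmf219 was 69.2 ± 6.12 (SD, n = 5 each). The log2 fold change was 0.01 (SE 0.12, 95% interval -0.26 to 0.28, limma adjusted p = 0.983, exact permutation p = 0.960). The mean of log values and the mean of values differ in sign here, both by far less than the error.

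Otoa (ENSMUSG00000034990, chromosome 7, 121081650 to 121163097, plus strand, 29 exons) had the largest difference between genotypes of the 5. It was at 40.7, 39.9, 44.9, 39.6 and 32.3 in nmf219 replicates 1 to 5, against 36.4, 31.9, 32.4, 31.3 and 41.0 in WT replicates 1 to 5. In each genotype 1 library lay on the side of the other genotype: nmf219 replicate 5 was among the low libraries and WT replicate 5 among the high ones. Otoa averaged 39.5 ± 4.57 in nmf219 and 34.6 ± 4.10 in WT (SD, n = 5 each), a log2 fold change of 0.18 (SE 0.09, 95% interval -0.01 to 0.38, limma adjusted p = 0.680, exact permutation p = 0.135).

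**Figure D1:**
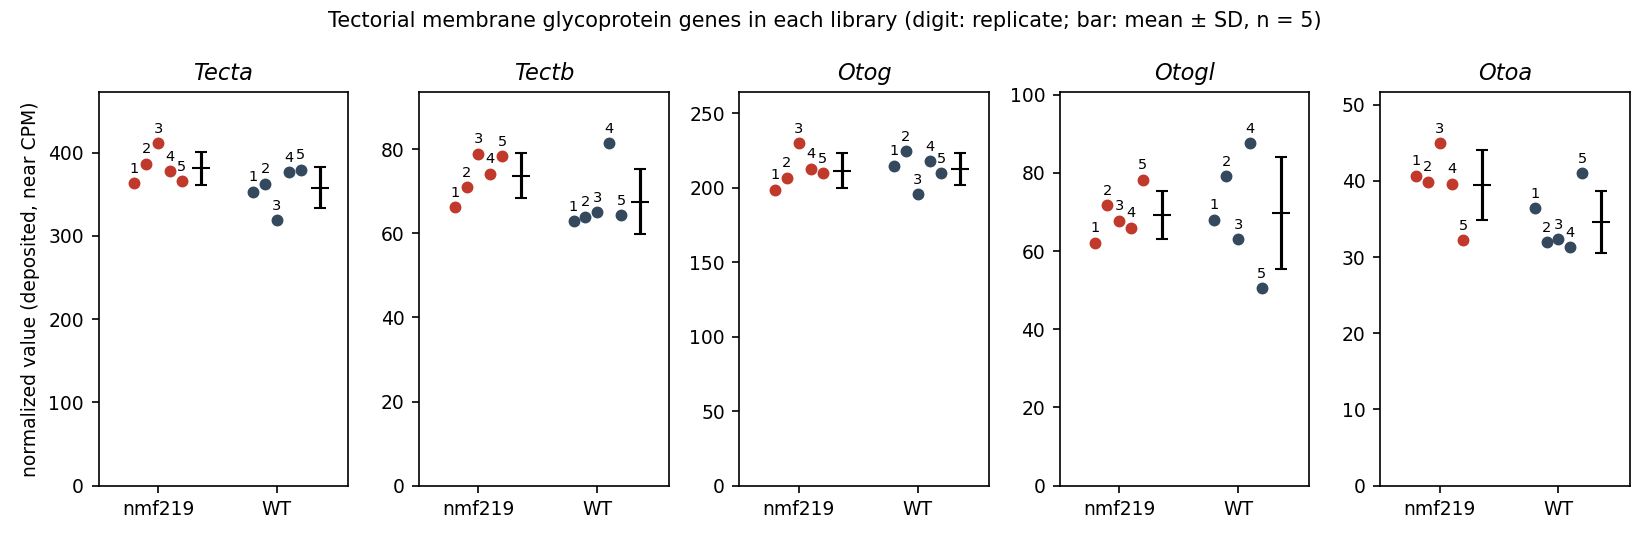
Deposited normalized value of each gene in each library, nmf219 left and WT right, with the replicate number above each point and the mean ± SD of 5 libraries as a bar; every axis starts at 0. The genotypes overlap for all 5 genes, Otogl in WT spreads from 50.5 to 87.6, and WT replicate 4 stands above the other WT libraries for Tectb at 81.4.

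In the authors' deposited table Otoa had a fold change of 1.14 (p = 0.0745, FDR 0.805), and the other 4 genes had an FDR of 1. Over all genes the authors' deposited table called far more than limma did at the same threshold of 0.05, with 505 genes or 3.26%, of which 395 (2.55%) were higher and 110 (0.711%) lower in nmf219. The authors' deposited table thus held mostly higher calls, where the 13 genes passing limma were 2 higher and 11 lower, and 12 of those 13 were also called by the authors. None of the 5 genes was called by either test. The 95% intervals of the main test reached folds of 1.31 for Otoa, 1.22 for Tectb and Otogl, 1.152 for Tecta and 1.07 for Otog on the upper side, and 0.834 for Otogl on the lower side, and differences inside those bounds could not be told from 0 here. With the 2 ranges of sample numbers in the descriptions taken apart (2162 to 2169, with 3 nmf219 and 2 WT libraries, and 2199 to 2208, with 2 nmf219 and 3 WT libraries), Otoa was at log2 fold changes of 0.20 and 0.10 and Tectb at 0.16 and 0.14. Tecta was at 0.06 and 0.09, Otog at -0.04 and 0.01 and Otogl at 0.08 and -0.01. For Otog and Otogl the sign thus differed between the ranges, with an SE of 0.06 or more in each.

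**Figure D2:**
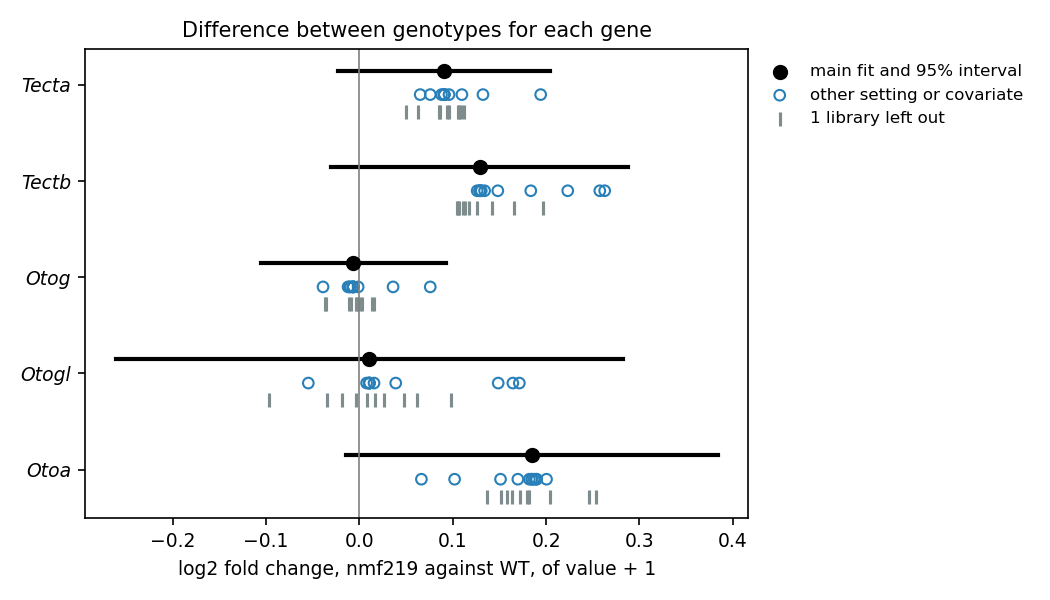
Log2 fold change of nmf219 against WT on the scale of value + 1: the filled point and line are the main fit with its 95% interval, open circles are other scalings, pseudocounts, filters, blocks and covariates, and ticks are fits without 1 library. All 5 intervals include 0, and the open circles of Otog and Otogl fall on both sides of it.

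To compare levels between genes, values were divided by the length of the longest coding sequence of each gene in GENCODE M21, which was 1017 bp for Tectb, 3411 for Otoa, 6465 for Tecta, 6975 for Otogl and 8733 for Otog. Per kilobase of coding length Tectb led, with 72.5 ± 5.19 in nmf219 and 66.4 ± 7.66 in WT, ahead of Tecta with 58.9 ± 2.997 in nmf219 and 55.4 ± 3.79 in WT (SD, n = 5 each). Otog followed at 24.2 ± 1.31 in nmf219 and 24.3 ± 1.24 in WT. Otoa, at 11.6 ± 1.34 in nmf219 and 10.1 ± 1.20 in WT, and Otogl, at 9.92 ± 0.878 in nmf219 and 9.99 ± 2.06 in WT, were the lowest and overlapped in both genotypes. Tecta was above 80.9% and Tectb above 84.7% of the 14350 genes with a coding length on this scale, while Otogl was above 33.1%.

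The order of the tectorins rested on the length used, and the standing among all genes was computed per coding length only. Per kilobase of the longest transcript, Tectb was at 27.1 ± 1.94 in nmf219 and 24.8 ± 2.86 in WT, below Tecta at 51.9 ± 2.64 in nmf219 and 48.8 ± 3.34 in WT. The longest Tectb transcript has 2725 bp. On both scales the tectorins were above the otogelins and Otoa in every library, and Otog was above Otogl and Otoa in every library.

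**Figure D3:**
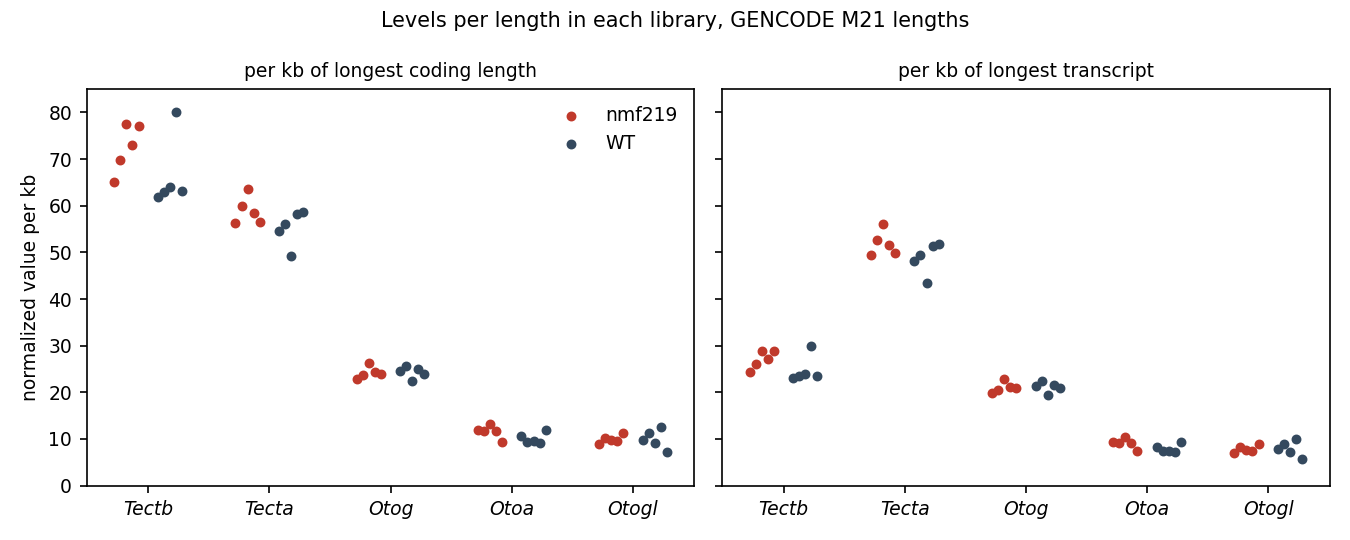
Normalized value per kilobase in each library, divided by the longest coding length (left panel) or the longest transcript (right panel), with nmf219 left of WT for each gene. Tectb and Tecta exchange places between the panels, while Otog stays between them and the pair of Otoa and Otogl.

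The sequence before the transcript start is shown for the 4 genes that have a window in the RefSeq promoter table (GRCm38.p6), because the gene that carries the allele encodes a T-box factor. The letters run 5′ to 3′ on the strand of the gene. Capitals mark matches, on either strand, to 5 motifs: the T-box site AGGTGTGA, the TATA box TATAAA, the GATA site AGATAA, the SOX and TCF core ACAAAG and the nuclear receptor site AGGTCA. Each stretch ends 1 base before the RefSeq transcript start, which for Otoa lies inside the span of the deposited table. Tecta has a second RefSeq start, at 42401690, whose stretch held none of the motifs and is not printed.
Tecta, chr9:42399948-42400197, minus strand: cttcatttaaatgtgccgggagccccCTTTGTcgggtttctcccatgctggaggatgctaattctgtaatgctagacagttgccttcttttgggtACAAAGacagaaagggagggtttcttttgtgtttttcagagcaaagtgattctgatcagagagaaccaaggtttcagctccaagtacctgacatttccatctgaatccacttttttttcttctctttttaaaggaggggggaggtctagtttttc
Tectb, chr19:55180476-55180725, plus strand: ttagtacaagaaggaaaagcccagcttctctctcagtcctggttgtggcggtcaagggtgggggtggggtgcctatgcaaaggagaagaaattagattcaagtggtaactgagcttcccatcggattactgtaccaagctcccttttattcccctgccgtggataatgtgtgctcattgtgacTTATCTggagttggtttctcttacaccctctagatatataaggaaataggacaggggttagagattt
Otog, chr7:46240737-46240986, plus strand: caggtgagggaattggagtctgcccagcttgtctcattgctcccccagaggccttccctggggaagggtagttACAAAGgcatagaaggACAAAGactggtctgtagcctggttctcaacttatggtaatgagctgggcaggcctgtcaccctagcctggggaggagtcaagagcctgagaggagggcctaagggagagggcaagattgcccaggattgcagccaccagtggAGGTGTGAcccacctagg
Otoa, chr7:121083174-121083423, plus strand: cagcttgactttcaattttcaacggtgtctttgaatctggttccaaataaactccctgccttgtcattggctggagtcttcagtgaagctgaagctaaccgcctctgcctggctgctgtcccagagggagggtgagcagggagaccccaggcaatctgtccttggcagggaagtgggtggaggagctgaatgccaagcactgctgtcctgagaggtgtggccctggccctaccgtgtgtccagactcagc

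The Otog stretch holds the T-box site with its first letter 18 bases before the start, a motif that 1.12% of all 32851 windows of 250 bases hold. It also holds the SOX and TCF core at 177 and 161 bases before the start. The Tecta stretch holds that core in both directions, at 224 and 155 bases, and 16.46% of windows hold it. The Tectb stretch holds the GATA site, read on the other strand, at 67 bases, and 9.99% of windows hold that site on either strand. The Otoa stretch holds none of the 5 motifs. The exact letters TATAAA and AGGTCA, present in 12.4% and 14.02% of windows, were in none of the 4. Variants of the motifs were not searched, such as the letters TATATAAG near the end of the Tectb stretch. A match describes the letters and is not a bound site.

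If 1 step is 1 read, the largest relative counting error in any library was 0.998% for Tecta, 1.27% for Otog, 2.21% for Tectb, 2.48% for Otogl and 3.13% for Otoa. The coefficient of variation was 5.09% in nmf219 and 6.85% in WT for Tecta, 5.40% in nmf219 and 5.09% in WT for Otog, and 7.16% in nmf219 and 11.5% in WT for Tectb. It was 11.6% in nmf219 and 11.8% in WT for Otoa, and 8.85% in nmf219 and 20.6% in WT for Otogl. Set against genes within 2-fold of its own value, the within-genotype SD on the log2 scale was larger than that of 97.5% of genes for Otogl, 92.1% for Otoa, 88.1% for Tectb, 67.4% for Tecta and 60.8% for Otog.

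The ratio of Otogl to Otoa was 1.53, 1.80, 1.51, 1.67 and 2.43 in nmf219 replicates 1 to 5, against 1.87, 2.48, 1.95, 2.80 and 1.23 in WT replicates 1 to 5. The lowest ratio and the highest were thus both in WT, and nmf219 replicate 5 stood well above the other nmf219 libraries. After removal of each genotype mean, the log2 values of Otogl and Otoa had Pearson r = -0.74 (permutation p = 0.0143, adjusted 0.0716 over 10 pairs of genes) and Spearman rho = -0.68 (permutation p = 0.0351, adjusted 0.316) over 10 libraries, with r = -0.57 without WT replicates 4 and 5. Tecta and Otog had the highest r of the 10 pairs, at r = 0.77 (permutation p = 0.0095, adjusted 0.0716) and rho = 0.61 (permutation p = 0.0661, adjusted 0.316), but r was 0.42 without nmf219 replicate 3 and WT replicate 3. No pair passed after adjustment.

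The level of Otoa was inversely related to Hbb-y, an embryonic beta-like globin of primitive red cells, in both genotypes. This relation was computed with the values known, as 1 of 15 between the 5 genes and Hbb-y, the muscle list and a list of otic epithelium markers. The 5 libraries with the least Hbb-y, nmf219 replicates 1 to 4 and WT replicate 5, had Hbb-y at 3.10 to 6.15 and Otoa at 39.6 to 44.9. The 4 libraries with the most Hbb-y, nmf219 replicate 5 and WT replicates 2, 3 and 4, had Hbb-y at 15.8 to 44.4 and Otoa at 31.3 to 32.4. WT replicate 1 lay between them, with Hbb-y at 11.4 and Otoa at 36.4.

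With each genotype mean removed, Otoa and Hbb-y had r = -0.93 (permutation p = 0.00024, adjusted 0.0036 over 15 relations) and rho = -0.88 (permutation p = 0.00156, adjusted 0.0234) over 10 libraries. As measured, r was -0.93 (permutation p = 0.00026, adjusted 0.0039). Without nmf219 replicate 5 and WT replicate 4, the 2 farthest libraries in Hbb-y, r was -0.87. Within genotypes r was -0.93 in the 5 nmf219 and -0.93 in the 5 WT libraries. Of 15167 genes with a mean value of at least 1, 0.712% had an r with Hbb-y as low as that of Otoa. With Hbb-y as a covariate the log2 fold change of Otoa was 0.07 (SE 0.05, limma adjusted p = 0.947), against 0.18 without it. Hbb-y itself was lower in nmf219 by 0.95 on the log2 scale, with overlap (exact permutation p = 0.238). The summed erythroid marker list was 4978 to 7672 in nmf219 and 2571 to 9693 in WT, with 6 of 8 genes higher and 2 lower in nmf219, and its part in the Otoa values was not tested.

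For Otogl the sign was the opposite, with r = 0.78 with Hbb-y (permutation p = 0.0103, adjusted 0.0326) but rho = 0.58 (permutation p = 0.0887, adjusted 0.179), and r = 0.65 without the same 2 libraries. As measured, r was 0.70 (permutation p = 0.0216, adjusted 0.162). An r this high after removal of genotype means was found in 9.74% of genes. The highest Otogl values were 87.6 in WT replicate 4, 79.1 in WT replicate 2 and 78.2 in nmf219 replicate 5, all rich in Hbb-y. The lowest, 50.5, was in WT replicate 5, the library with the least Hbb-y. WT replicate 3 went the other way, with Hbb-y at 20.5, above that of WT replicate 2, but Otogl at only 63.0. With Hbb-y as a covariate the log2 fold change of Otogl was 0.15 (SE 0.09, limma adjusted p = 0.932), against 0.01 without it. Tecta (r = -0.38), Tectb (0.54) and Otog (-0.07) did not pass with Hbb-y, with permutation p-values of 0.286, 0.110 and 0.855, adjusted 0.330, 0.206 and 0.866.

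**Figure D4:**
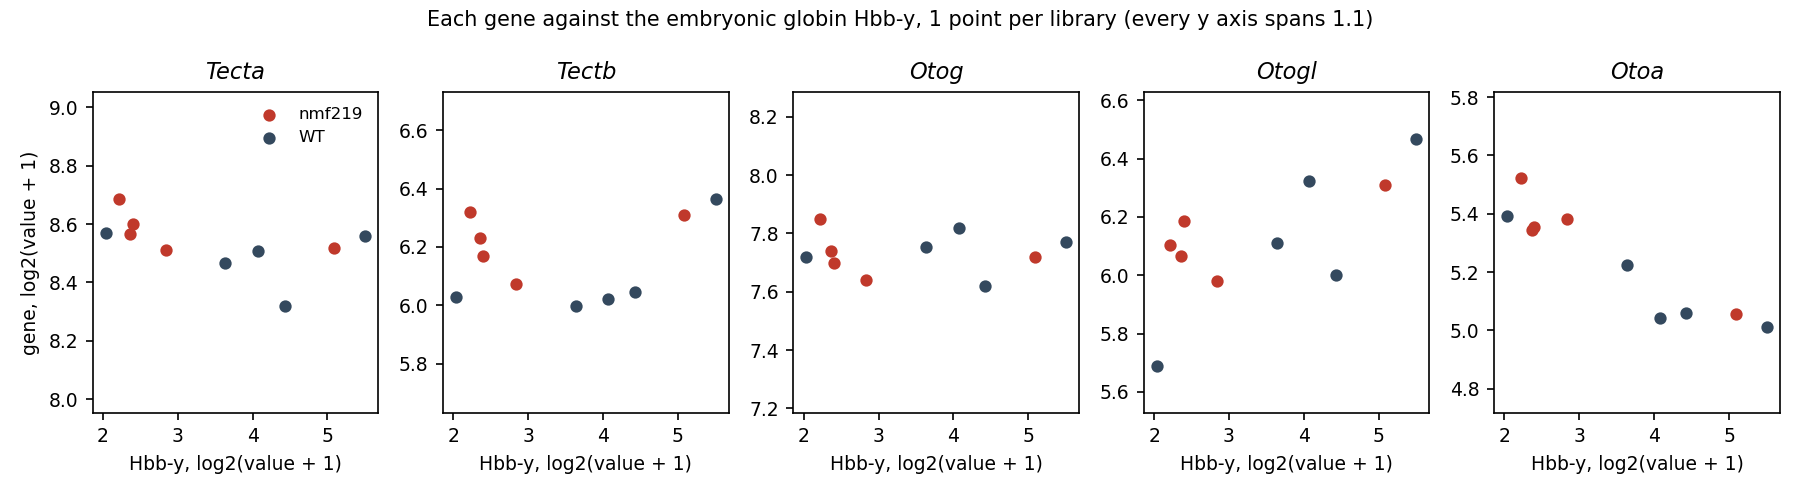
Log2(value + 1) of each gene against log2(value + 1) of Hbb-y, with 1 point per library, nmf219 in red and WT in dark blue; every vertical axis spans the same range. Otoa falls from left to right in both genotypes (r = -0.93 after removal of genotype means), Otogl rises (r = 0.78) and Otog stays level (r = -0.07).

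Tecta and Otog were lower where muscle RNA was higher within a genotype, by Pearson's r alone. After removal of genotype means, Tecta had r = -0.82 with the muscle list (permutation p = 0.00427, adjusted 0.0214; rho = -0.76, permutation p = 0.0154, adjusted 0.0768), and r = -0.60 without WT replicates 3 and 4. Otog had r = -0.76 (permutation p = 0.0109, adjusted 0.0326) and Tectb r = -0.71 (permutation p = 0.0231, adjusted 0.0578), and no rho passed after adjustment. As measured, r was -0.24 for Tecta, -0.63 for Otog and -0.19 for Tectb, and none passed. The share of all genes with an r as low with the muscle list was not computed, so these relations have no background. WT replicate 3, with the most muscle RNA among WT, held the lowest Tecta (318) and the lowest Otog (196) of all 10 libraries. All 17 muscle markers were higher in nmf219, with 0 called and a median log2 fold change of 1.53, and genotype and muscle RNA were in part confounded. The log2 fold changes with it as a covariate were 0.19 for Tecta (SE 0.05), 0.26 for Tectb (SE 0.07) and 0.08 for Otog (SE 0.05), with limma adjusted p-values of 0.863, 1.00 and 1.00. Their unadjusted p-values in that limma fit were 0.00184, 0.00360 and 0.125.

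Tectb was higher where the otic epithelium list was higher within a genotype, by Pearson's r alone. The list's 12 markers include Epcam, Cdh1 and Oc90. As measured, r was 0.38 (permutation p = 0.284, adjusted 0.456). With genotype means removed r was 0.87 (permutation p = 0.00049, adjusted 0.00367), rho 0.77 (permutation p = 0.0125, adjusted 0.0768), and r 0.76 without nmf219 replicate 5 and WT replicate 4. That list had a mean of 5.97 to 6.14 on the log2 scale in nmf219 and of 6.06 to 6.20 in WT, and 3 of its 12 genes were higher and 9 lower in nmf219, with 0 called. With it as a covariate, the log2 fold change of Tectb was 0.26 (SE 0.05, limma adjusted p = 0.256), against 0.13 without it. The other 4 genes did not pass with this list. The share of all genes with an r as high with it was not computed either.

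Ratios between the genes, which do not depend on the scaling of a library, did not differ detectably between genotypes. Of 10 pairs, 0 passed an exact permutation test after adjustment and 1 had an unadjusted p under 0.05. That pair was Tecta over Otog, at 1.83, 1.87, 1.79, 1.78 and 1.74 in nmf219 replicates 1 to 5, against 1.64, 1.61, 1.63, 1.73 and 1.81 in WT replicates 1 to 5. All nmf219 ratios lay above 4 of the 5 WT ratios, and WT replicate 5 overlapped. The log2 ratio was 0.85 ± 0.04 in nmf219 and 0.75 ± 0.07 in WT (SD, n = 5 each), a difference of 0.10 (two-sided exact permutation p = 0.0476, adjusted 0.370 over 10 pairs). The log2 ratio of Tecta to Tectb was 2.37 ± 0.09 in nmf219 and 2.41 ± 0.15 in WT (exact permutation p = 0.627, adjusted 0.741).

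The genes whose residual pattern over the 10 libraries was most like each member, among 13768 named genes, were Slc7a5, an amino acid transporter gene (r = 0.97, rho = 0.98), Pcolce2 (r = 0.97, rho = 0.95) and Pik3ip1 (r = 0.97, rho = 0.88) for Otoa. For Otogl they were Mybl1 (r = 0.97, rho = 0.95), Rasef (r = 0.97, rho = 0.88) and Prtg (r = 0.96, rho = 0.98). For Otog they were Elp4 (r = 0.96), Rhpn1 (0.95) and Btbd8 (0.93), for Tectb Noct (0.98), Znrd1 (0.95) and Rpl14 (0.95), and for Tecta Esyt3 (0.94), Myh14 (0.93) and Mpst (0.92). These are the extremes of a search over all genes with 10 points each and carry no test.

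Other components of the gel and of its relatives did not pass the test either. Of 9 collagens and other matrix genes of the tectorial membrane 8 were in the table, 2 higher and 6 lower in nmf219, with a median log2 fold change of -0.10 against -0.01 over all genes. Col2a1, the fibrillar collagen of the gel and of cartilage, was at 11948 ± 1608 in nmf219 and 12423 ± 1655 in WT, Col11a1 at 3728 ± 340 in nmf219 and 4115 ± 558 in WT, and Col11a2 at 2272 ± 293 in nmf219 and 2503 ± 418 in WT (SD, n = 5 each). The otic capsule makes these collagens as cartilage, and the cartilage marker list had 1 gene higher and 8 lower. Of its 9 genes, 3 are Col2a1, Col9a1 and Col11a1, which the collagen list also holds, and 5 of the other 6 were lower. The part of cartilage in these values was not tested. Ceacam16, a tectorial membrane protein, was not among the rows of the table.

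In the list of otolithic matrix and otoconia genes 7 of 9 were higher and 2 lower in nmf219, with a median of 0.19. The ranges of 1 of the 9, Nox3, did not overlap, against 1.17% of all genes. Sparc, a matrix calcium binder, was at 2192 ± 235 in nmf219 and 1889 ± 328 in WT, Oc90, the main otoconial protein, at 1159 ± 64.9 in nmf219 and 1172 ± 65.6 in WT, and Sparcl1 at 262 ± 32.8 in nmf219 and 233 ± 52.9 in WT. The list of otoancorin relatives and attachment partners also held tip link cadherins. Its genes (5 of 6 in the table) were all higher, with a median of 0.21. Of the relatives, Strc was at 2.41 ± 0.526 in nmf219 and 1.71 ± 0.670 in WT. Msln was at 2.25 ± 1.13 in nmf219 and 2.13 ± 2.11 in WT. Cdh23, a tip link cadherin, was at 13.9 ± 1.56 in nmf219 and 11.4 ± 2.35 in WT, Pcdh15, its partner in the tip link, at 10.7 ± 0.910 in nmf219 and 10.7 ± 1.103 in WT, and Tmem132e at 10.4 ± 0.480 in nmf219 and 9.84 ± 0.914 in WT. None of the genes in these lists passed limma's test over all genes.

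Zona pellucida domain relatives of the tectorins (3 of 8 in the table) were all higher, with a median of 0.19; Eng, an endothelial receptor, was at 86.2 ± 3.54 in nmf219 and 83.0 ± 6.90 in WT, Tgfbr3 at 74.1 ± 9.25 in nmf219 and 66.2 ± 16.2 in WT, and Oit3 at 1.104 ± 0.254 in nmf219 and 0.773 ± 0.0611 in WT. Relatives of the otogelins with mucin or von Willebrand factor D domains (6 of 9 in the table) were higher in 5 cases and lower in 1, with a median of 0.11. Among them Vwf of endothelial cells was at 62.4 ± 5.04 in nmf219 and 51.4 ± 10.5 in WT, Muc19 at 6.13 ± 0.668 in nmf219 and 5.13 ± 1.09 in WT, and Sspo at 3.59 ± 0.129 in nmf219 and 3.89 ± 0.520 in WT. No gene of either list passed limma's test over all genes.

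Genes of secretion and processing were higher in 8 and lower in 2 of 10 cases, with a median of 0.06. Furin, a proprotein convertase of the secretory pathway, was at 121 ± 6.13 in nmf219 and 119 ± 7.54 in WT, Pcsk5, another convertase, at 86.7 ± 6.17 in nmf219 and 79.3 ± 15.9 in WT, and St3gal1, a sialyltransferase, at 73.7 ± 2.77 in nmf219 and 71.8 ± 1.69 in WT. Thyroid hormone is needed for the tectorial membrane to mature, and its 7 signalling genes were all higher, with a median of 0.12. The receptor gene Thra was at 166 ± 10.01 in nmf219 and 155 ± 16.3 in WT, and Thrb, the receptor needed for hearing, at 30.3 ± 2.73 in nmf219 and 26.5 ± 2.12 in WT. None of these 17 genes passed.

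Of 11 markers of the cochlear floor and interdental cells 9 were higher and 2 lower in nmf219 (median 0.04), of 12 supporting cell markers 9 were higher and 3 lower (median 0.09), and of 12 hair cell markers 11 were higher and 1 lower (median 0.10), with 0 called in each list. The summed value of the cochlear floor list was 1189 to 1401 in nmf219 and 1163 to 1399 in WT. Over all genes 7252 were higher and 8220 lower. Tbx1 itself was at 25.2 ± 2.02 in nmf219 and 24.3 ± 4.08 in WT (SD, n = 5 each; limma adjusted p = 0.872). Since the labels do not give the change in the allele, this level does not check the genotype.

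**Figure D5:**
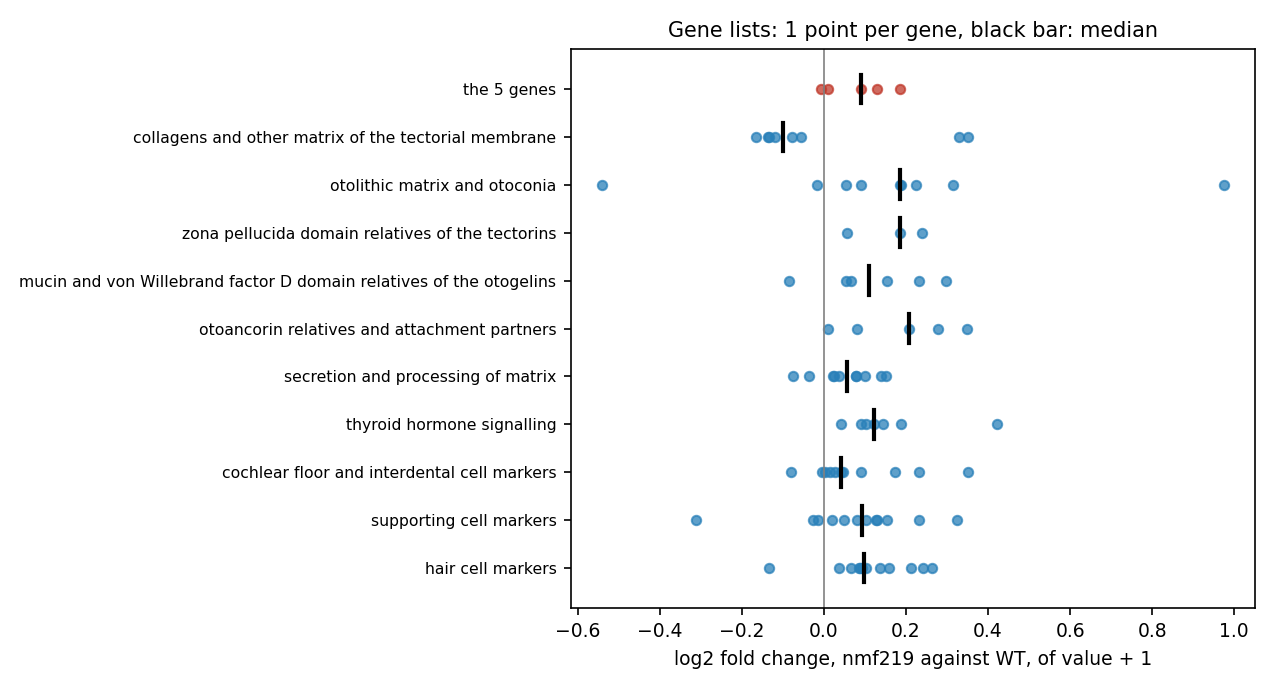
Log2 fold change of nmf219 against WT on the scale of value + 1 for every gene of the 5 and of 10 related lists, 1 point per gene, with a black bar at each median. The 5 genes lie between -0.01 and 0.18; the points farthest from 0 are in the otolithic list, Nox3 at 0.97 and Pax2 at -0.54, both chosen for mention after their values were seen and neither past limma's test (adjusted p = 0.497 and 0.176).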

How the data were processed

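Whole inner ears were snap frozen and RNA was taken up in TRIzol, per the labels' protocols; groups came from sample titles. No source used here names the aligner, counting tool, strand setting, annotation or build. In GENCODE M21 an antisense gene model, Gm47629, overlaps Tecta on the opposite strand, and Mir6715 overlaps Tectb on the same strand. How reads in these overlaps were assigned is not known. The deposited table gives every library 1 column of normalized signal, which the authors head with both counts and CPM. Columns sum to 990643 to 1009217, and each value is a whole multiple of 1 step per library (100% within 0.01 of a step). The authors' log2 fold change, signed fold change score, p-value and FDR are also deposited. The table lists positions as printed; both ends equal GENCODE M21 (GRCm38) for 4 of the 5 genes, and 1 end for Otogl.

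Genotypes were compared by limma 3.58.1 in R 4.3.3 with a mean-variance trend, over 15472 genes, after log2(value + 1). Genotype was the sole term, p-values were adjusted by Benjamini and Hochberg's method, and an adjusted p below 0.05 counted as passing. The fit was tested on simulated data whose changes were larger than the mean differences of the 5 genes. That test does not show whether differences as small as these would pass. The planned count-based tests were not run, because the values were not accepted as counts. Single values used exact permutation tests of 5 against 5 (two-sided, smallest p 0.00794), and correlations used 100000 permutations. With genotype means removed, residuals were shuffled over all 10 libraries, also across genotypes, which can make those p-values too small. Named genes were the 5 members, Tbx1, called genes or otherwise the 3 most abundant of each list that is not a marker list, and the 3 genes most like each member; 1 gene that the rule names is not reported here. Strc and Msln were named outside this rule. Members and lists were chosen with earlier results of these data known.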

Additional observations from a re-analysis of the deposited data

Results flagged for a closer look

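Among 32 groups of 5 values, made of the 5 genes, Tbx1 and 10 ratios in each genotype, 2 held a library far from the others by Dixon's criterion; chance gives about 1 in 20. Tectb in WT replicate 4 was at 81.4, while the other 4 WT libraries were at 62.9 to 65.0. The ratio of Tecta to Otogl in WT replicate 5 was 7.51, while the other WT libraries were at 4.30 to 5.19.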

How the results depend on the processing

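None of the 5 genes passed under any of 21 alternative fits, and the fold changes of Tecta, Tectb and Otoa were positive in all of them, at 0.05 to 0.19, 0.10 to 0.26 and 0.07 to 0.25. Otog, at -0.01, was 0.076 with the muscle covariate, 0.036 with the epithelium covariate and between -0.037 and 0.015 without 1 library. Otogl, at 0.01, was -0.055 with Xist as a covariate, 0.17 with the muscle covariate, 0.16 with the epithelium covariate, 0.15 with Hbb-y and between -0.10 and 0.10 without 1 library; the cause was not tested. The count of genes passing over the whole table, 13, was 3 with the muscle covariate, 33 with Hbb-y, 2 with Xist and 7 to 18 without 1 library (7 without nmf219 replicate 3, nmf219 replicate 4 or WT replicate 2, and 8 without nmf219 replicate 1). The lowest limma adjusted p over all alternatives was 0.352 for Tecta, 0.256 for Tectb, 0.889 for Otog, 0.634 for Otogl and 0.273 for Otoa. The labels do not say whether replicate numbers pair the samples. Same-numbered libraries had correlations of -0.48 to 0.14, which were not compared with those of other pairs and cannot settle it. With a replicate block 2 genes passed, none of the 5. Of 10 ratios, 0 passed in any alternative; without 1 library the log2 ratio difference was -0.10 to 0.087 for Otog over Otogl and -0.15 to 0.044 for Tectb over Otoa. Per kilobase of longest transcript the means over 10 libraries were 50.3 for Tecta, 25.9 for Tectb, 21.1 for Otog, 7.92 for Otogl and 8.52 for Otoa, against 57.1, 69.4, 24.3, 9.95 and 10.9 per kilobase of coding length. The planned edgeR, DESeq2 and limma-voom fits were not run.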
